A study of Mus musculus with 6 samples.

Results

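The genes followed here are 10 that mark macrophages and their states: *Csf1r*, *Cd68*, *Lyz2*, *Mrc1*, *Cd163*, *Lyve1*, *Folr2*, *Timd4*, *Trem2* and *Gpnmb*. They were taken by gene symbol from the annotation of the array, with every probe of each symbol, and are 10 of the 27307 gene symbols that the array carries and 10 of the 13747 that could be tested. They were read in 6 *Clk4*-cKO hearts, 3 from the group given AAV NEXN-WT and 3 from the group given AAV NEXN-S437E. The comparison asks what differs in the heart when the introduced NEXN, a Z-disc protein that binds actin filaments, carries a glutamate that mimics a phosphorylated serine. All 6 hearts came from male C57BL/6J mice, whose age the labels do not give, and in all of them the kinase gene *Clk4* had been deleted by tamoxifen through α-MHC-MerCreMer, a Cre that acts in cardiomyocytes and not in macrophages. Hearts with intact *Clk4* or without virus were not analysed here, and the groups differed in the NEXN form that the AAV9 vector carried under a CMV promoter, which is not restricted to one cell type. RNA came from whole myocardium, and in such bulk samples fewer macrophages and less RNA per macrophage cannot be told apart.

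Macrophages are the most numerous leukocytes of the healthy heart. A long-lived resident population, seeded before birth and renewed in place, carries TIMD4, LYVE1 and FOLR2 and clears debris around vessels and myocytes, while blood monocytes that enter an injured or overloaded heart give rise to macrophages that can take up a lipid-handling and matrix-remodelling state marked by TREM2 and GPNMB. These cells depend on signals through the CSF1 receptor, encoded by *Csf1r*. *Csf1r*, *Cd68* and *Lyz2* are taken here as genes of macrophages of any state. They are no count of cells, and neutrophils also make *Lyz2*.

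The 10 genes were read by 15 probes, and the probes and gene starts of the 5 genes that separated the hearts by group are shown because the results rest on them. Each probe is 60 bases long, and bases 16 to 45 are printed 5′ to 3′ with the position of the whole probe on mm9, the build of the deposited coordinates. Capitals mark the letters ATTAAA in the *Trem2* probe, one of the common polyadenylation signals of mouse transcripts. The other 4 stretches hold neither ATTAAA nor AATAAA.
Lyve1 probe, chr7:117994171-117994230, minus strand: taacaaatacattattagctctcattcttt
Folr2 probe, chr7:108988771-108988830, minus strand: gggcaatcccaatgaggacgtggtgaagtt
Timd4 probe, chr11:46657173-46657232, plus strand: caagtttctttaaagttgactatagtgcct
Trem2 probe, chr17:48491537-48491596, plus strand: tctgtcaacttctgcactttggacATTAAA
Gpnmb probe, chr6:49006386-49006445, plus strand: tctaaggattattgtaaaatgtatatcgtg
For the starts of the genes, the 250 bases before each annotated start were taken from RefSeq (GRCm38.p6), which held windows for 8 of the 10 genes. *Folr2* has 2 such windows, and *Lyve1* has none among those used here. Capitals mark matches, on either strand, to the letters of 3 motifs bound by factors known in macrophages. These are the PU.1 core GAGGAA, held by 23.3% of all 32851 windows of this length, the M-box TCANGTG of the MITF and TFE factors, held by 12.2%, and the MAF recognition element core TGCTGA, held by 16.1%. No 2 matches overlap in the windows printed here.
Timd4 upstream window, chr11:46810549-46810798, plus strand: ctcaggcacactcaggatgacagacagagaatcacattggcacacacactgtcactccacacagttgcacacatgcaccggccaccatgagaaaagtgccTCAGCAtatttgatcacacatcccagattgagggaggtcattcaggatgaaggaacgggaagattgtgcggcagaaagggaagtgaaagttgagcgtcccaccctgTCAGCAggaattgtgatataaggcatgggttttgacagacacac
Folr2 upstream window, chr7:101857191-101857440, minus strand: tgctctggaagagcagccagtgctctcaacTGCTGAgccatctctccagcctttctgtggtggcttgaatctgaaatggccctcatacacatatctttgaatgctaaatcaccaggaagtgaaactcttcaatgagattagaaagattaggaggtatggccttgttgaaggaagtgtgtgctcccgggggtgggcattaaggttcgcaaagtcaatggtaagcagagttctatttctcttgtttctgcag
Folr2 upstream window, chr7:101845332-101845581, minus strand: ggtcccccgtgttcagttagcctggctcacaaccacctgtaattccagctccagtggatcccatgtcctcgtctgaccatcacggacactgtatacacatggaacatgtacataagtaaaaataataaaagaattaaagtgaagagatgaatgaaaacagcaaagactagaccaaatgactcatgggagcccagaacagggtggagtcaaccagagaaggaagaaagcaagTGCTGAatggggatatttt
Trem2 upstream window, chr17:48346151-48346400, plus strand: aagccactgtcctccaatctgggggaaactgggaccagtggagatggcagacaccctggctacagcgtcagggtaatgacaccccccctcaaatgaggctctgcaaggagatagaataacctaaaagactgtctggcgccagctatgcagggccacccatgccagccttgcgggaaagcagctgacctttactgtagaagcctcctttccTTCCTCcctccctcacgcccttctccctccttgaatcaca
Gpnmb upstream window, chr6:49036268-49036517, plus strand: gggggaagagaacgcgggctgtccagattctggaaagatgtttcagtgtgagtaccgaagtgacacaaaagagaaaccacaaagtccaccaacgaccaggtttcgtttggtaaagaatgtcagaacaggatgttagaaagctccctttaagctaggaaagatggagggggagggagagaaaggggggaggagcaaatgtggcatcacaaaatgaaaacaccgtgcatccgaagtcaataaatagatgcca
Among the resident genes, the *Timd4* window held the MAF recognition element core at 2 places, starting at -150 and -44 from the gene start, and each *Folr2* window held it at 1, at -220 and at -19. The *Trem2* window held 1 PU.1 core at -40, and the *Gpnmb* window held none of the 3 sets of letters. These matches describe the letters only, and motifs with other spellings were not searched.

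Each level below is the log2 signal of a probe minus the 75th percentile of its array, so that 0 is the 75th percentile, and levels of different probes are not comparable because probes bind with different strength. Of the 15 probes, 12 were well above background on all 6 arrays and 14 were tested, with every gene represented. A *Cd68* probe was below background on every array and was not tested. The *Gpnmb* probe and the second *Cd163* probe were tested because all 3 NEXN-WT hearts gave a signal well above background. In NEXN-S437E hearts this held for *Gpnmb* in 2 of 3 and for that *Cd163* probe in 1 of 3. At the study's thresholds, a 2-fold change with an unadjusted p under 0.05, *Timd4* rose and *Gpnmb* fell with NEXN-S437E, 2 of the 14 probes against 2.52% of the 22998 probes tested (0.735% higher and 1.78% lower). Because *Gpnmb* entered the test through the group where it is high, the count is also given over probes well above background on all 6 arrays, where 1 of 12, *Timd4*, passed against 1.63% of 21110. Without the fold threshold, 5 of the 14 probes passed against 17.2% of all, with *Lyve1*, *Folr2* and *Timd4* higher and *Trem2* and *Gpnmb* lower. Over probes well above background on all 6 arrays it was 4 of 12 against 17.6%. By the methods' t-test, *Lyve1* and *Gpnmb* alone had an unadjusted p under 0.05, and *Folr2* (0.0886), *Timd4* (0.137) and *Trem2* (0.103) did not. The 2 groups of hearts did not overlap for the same 5 of the 14 probes, against 27.9% of all tested probes. Over probes well above background on all 6 arrays it was 4 of 12 against 27.9%. Separation by group alone therefore does not set these genes apart from others. None of the 14 passed a limma adjusted p of 0.05 (Benjamini-Hochberg over all tested probes), which 0.161% of all probes did.

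**Figure D1:**
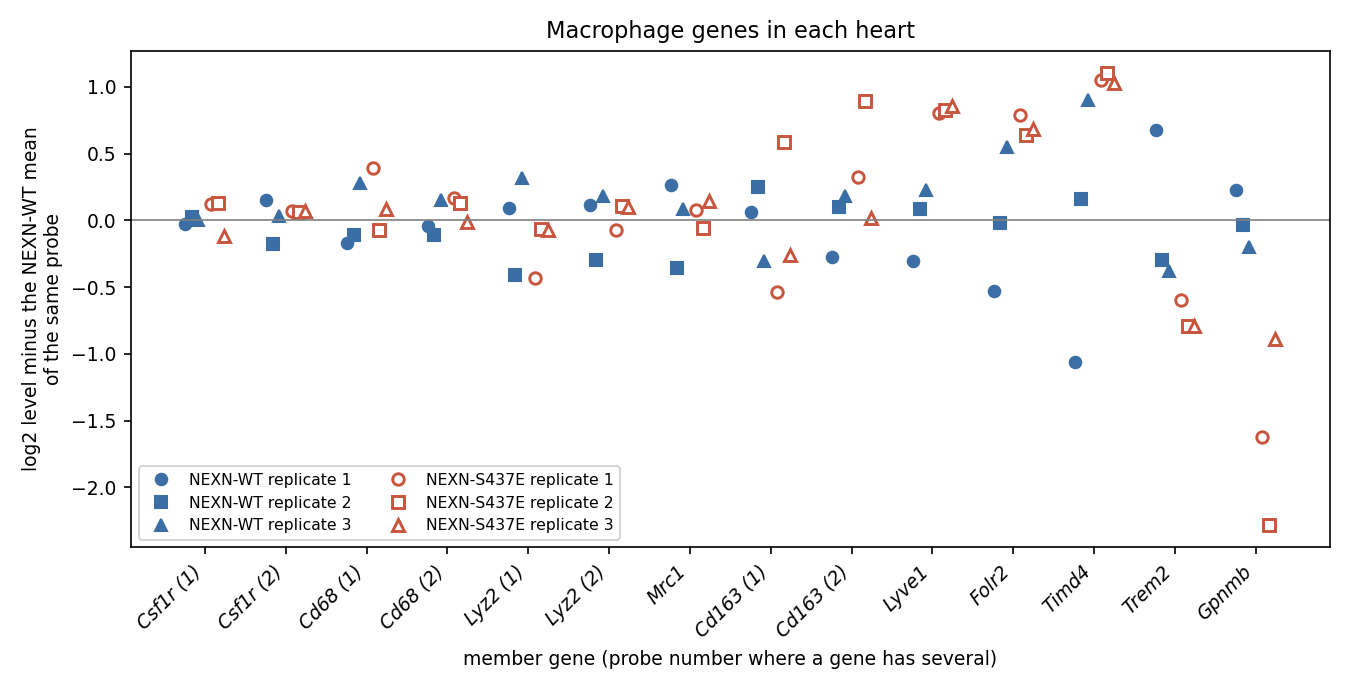
Log2 level of each of the 14 tested probes in each of the 6 hearts (y axis), minus the NEXN-WT mean of that probe, by gene (x axis, with the probe number where a gene has several). Filled blue symbols are NEXN-WT hearts, open red symbols NEXN-S437E hearts, and the shape gives the replicate number. The hearts mix for *Csf1r*, *Cd68*, *Lyz2*, *Mrc1* and *Cd163*, and separate by group for *Lyve1*, *Folr2* and *Timd4*, higher with NEXN-S437E, and for *Trem2* and *Gpnmb*, lower.

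*Csf1r*, *Cd68* and *Lyz2*, taken here to mark macrophages as a class, did not separate the groups. *Csf1r*, the receptor through which CSF1 and IL34 keep macrophages alive, was read by 2 probes. The second stood at 5.34, 5.02 and 5.22 in NEXN-WT hearts and at 5.27, 5.25 and 5.26 in NEXN-S437E hearts. The highest and the lowest heart were both NEXN-WT, and the 3 NEXN-S437E hearts lay between them. Its difference was 0.07 (95% interval -0.27 to 0.40), and that of the first probe was 0.04 (-0.28 to 0.37), so a change of *Csf1r* of either sign as large as 2-fold lies outside both intervals.

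*Cd68*, a glycoprotein of late endosomes and lysosomes, overlapped between the groups on both of its tested probes. The first ranged from 0.56 to 1.00 in NEXN-WT and from 0.65 to 1.11 in NEXN-S437E hearts, a difference of 0.13 (-0.31 to 0.57), and the second differed by 0.10 (-0.24 to 0.43). *Lyz2*, the lysozyme of macrophages and neutrophils, also overlapped, with differences of -0.19 (-0.69 to 0.31) and 0.04 (-0.35 to 0.44) on its 2 probes, which point in opposite directions. *Lyz2* has a close neighbour and paralog, *Lyz1*. The probes of the 2 genes share no run longer than 8 bases, and *Lyz1* itself differed by 0.13 with overlapping hearts.

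*Mrc1*, the mannose receptor CD206, ranged from 1.86 to 2.48 in NEXN-WT and from 2.16 to 2.36 in NEXN-S437E hearts, a difference of 0.06 (-0.38 to 0.49). *Cd163*, the scavenger receptor for haemoglobin bound to haptoglobin, was less tightly measured. Its first probe differed by -0.07 (-0.75 to 0.61) and its second by 0.41 (-0.15 to 0.97). NEXN-S437E replicate 2 was the highest heart on both probes. For these 5 genes the tests did not separate the groups, which does not show that their levels were equal.

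*Lyve1*, *Folr2* and *Timd4*, the 3 members grouped here under the resident programme, were all higher in the NEXN-S437E hearts. *Mrc1* and *Cd163* were not grouped with them and did not separate the groups. *Lyve1* encodes a hyaluronan receptor of resident macrophages and lymphatic vessels. It stood at 1.00, 1.39 and 1.53 in NEXN-WT hearts and at 2.12, 2.14 and 2.17 in NEXN-S437E hearts. The lowest NEXN-S437E heart lay above the highest NEXN-WT heart, and the NEXN-S437E hearts were nearly level (SD 0.03 against 0.27). The difference was 0.83 on the log2 scale, or 1.78-fold (SE 0.17, limma adjusted p = 0.111). Across 18 other settings it stayed between 0.65 and 0.94.

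*Folr2* encodes folate receptor beta of tissue macrophages. It stood at 2.22, 2.72 and 3.29 in NEXN-WT hearts and at 3.53, 3.38 and 3.43 in NEXN-S437E hearts. NEXN-WT replicate 3 came within 0.1 of the lowest NEXN-S437E heart, and NEXN-WT replicate 1 lay far below it. The difference was 0.70, or 1.63-fold (SE 0.26, limma adjusted p = 0.239), and it was 0.44 without NEXN-WT replicate 1. The unadjusted p rose above 0.05 when any heart other than NEXN-S437E replicate 2 or NEXN-WT replicate 3 was left out, up to 0.0711.

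*Timd4* encodes the phosphatidylserine receptor TIM4, through which resident macrophages bind dying cells. It stood at -2.63, -1.41 and -0.67 in NEXN-WT hearts and at -0.52, -0.47 and -0.55 in NEXN-S437E hearts. The 3 NEXN-S437E hearts agree to within 0.1, whereas the NEXN-WT hearts spread over almost 2 units (SD 0.99). The difference was 1.06, or 2.08-fold (SE 0.42, limma adjusted p = 0.262). It was 0.53 without NEXN-WT replicate 1, and past the study's thresholds only without NEXN-WT replicate 3, at 1.51, when each heart was left out in turn. Its adjusted p ranged from 0.0255 to 0.547 over 18 other settings.

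The 2 genes of the lipid and injury programme were lower in the NEXN-S437E hearts. *Trem2* encodes a receptor for lipids and lipoproteins that signals through TYROBP. It stood at 3.13, 2.16 and 2.07 in NEXN-WT hearts and at 1.85, 1.66 and 1.66 in NEXN-S437E hearts. NEXN-WT replicate 1 lay almost 1 unit above the other two NEXN-WT hearts, which were close to the highest NEXN-S437E heart. The fall was 0.73 on the log2 scale, or 1.65-fold (SE 0.28, limma adjusted p = 0.25), and the difference was -0.39 without NEXN-WT replicate 1. The unadjusted p rose above 0.05 without NEXN-S437E replicate 2 (0.0722) and without NEXN-S437E replicate 3 (0.07).

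*Gpnmb* encodes a transmembrane glycoprotein of lysosomes and phagosomes that marks lipid-laden macrophages. It stood at -1.03, -1.29 and -1.46 in NEXN-WT hearts and at -2.88, -3.54 and -2.15 in NEXN-S437E hearts. Here the NEXN-WT hearts lay close together and the NEXN-S437E hearts were the more scattered (SD 0.22 against 0.70). The processed signal before scaling was 133, 71.3 and 56.0 in NEXN-WT hearts and 15.0, 13.7 and 31.9 in NEXN-S437E hearts. *Gpnmb* fell by 1.60 on the log2 scale, or 3.03-fold (SE 0.32, limma adjusted p = 0.109). It passed the study's thresholds with each heart left out in turn, at -1.26 without NEXN-S437E replicate 2 and at -1.95 without NEXN-S437E replicate 3. It did not pass after normexp background correction (-0.53), which adds an offset of 50 to every signal, within the range of the *Gpnmb* signals themselves.

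**Figure D2:**
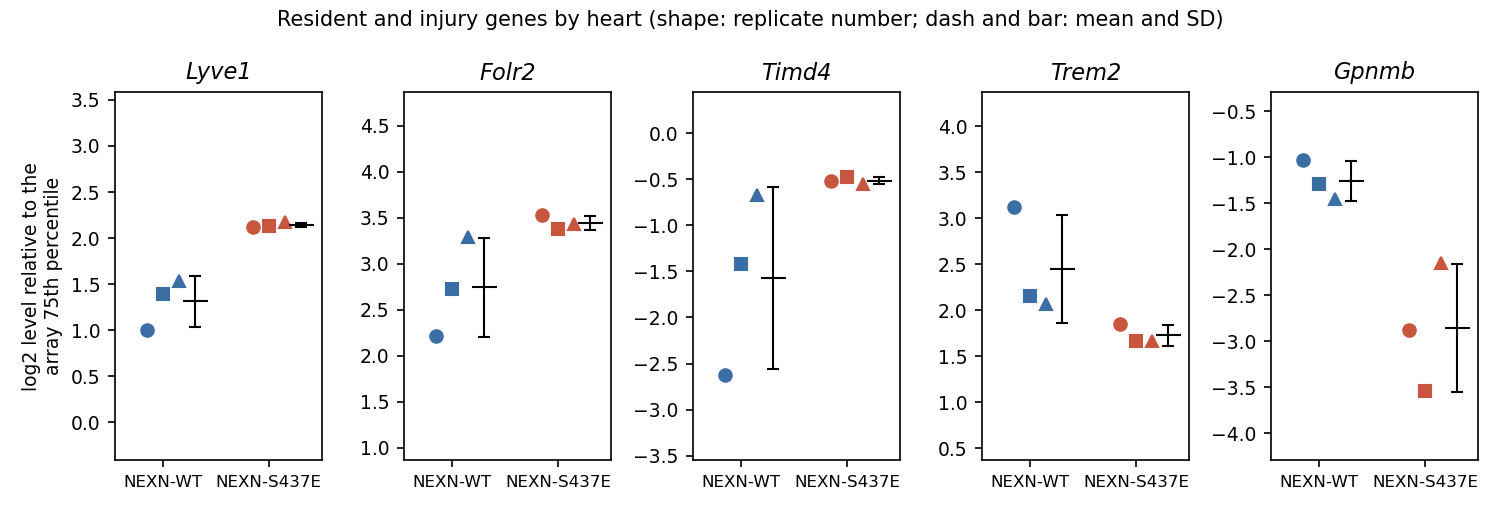
Log2 level relative to the array's 75th percentile (y axis) of the 5 genes whose hearts separated by group, in NEXN-WT hearts (blue) and NEXN-S437E hearts (red). Shapes give the replicate number, and the dash and bar are the mean and SD of 3 hearts; the panels span the same number of units. NEXN-WT replicate 1 (circle) is the lowest heart for *Lyve1*, *Folr2* and *Timd4* and the highest for *Trem2* and *Gpnmb*.

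With 3 hearts a group, an exact permutation test (two-sided) cannot give a p under 0.1, and any probe whose groups do not overlap takes that value, so it adds nothing to the choice of these 5 genes. NEXN-WT replicate 1 stood apart from the other arrays. Over all tested probes it differed from the other NEXN-WT arrays by a mean of 0.384 and 0.439, whereas those differed from each other by 0.248, and among the 14 probes it was the highest heart for 4 and the lowest for 5. Without it, all 5 genes kept their directions, *Lyve1* at 0.68 and *Gpnmb* at -1.48. The arrays lay in 2 rows of 1 slide, and row 1 held NEXN-S437E replicate 1 beside the whole NEXN-WT group. Within row 1 the differences were 0.81 for *Lyve1*, 0.79 for *Folr2*, 1.05 for *Timd4*, -0.60 for *Trem2* and -1.62 for *Gpnmb*, each from that 1 NEXN-S437E array. With the row as a block in the fit, the group difference rests on that same NEXN-S437E array, because row 2 held no NEXN-WT array. The block therefore cannot tell the row from the group for the other NEXN-S437E hearts. In the normalized log2 values that the authors deposited, the same genes differed by 0.78, 0.60, 1.07, -0.80 and -1.64.

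**Figure D3:**
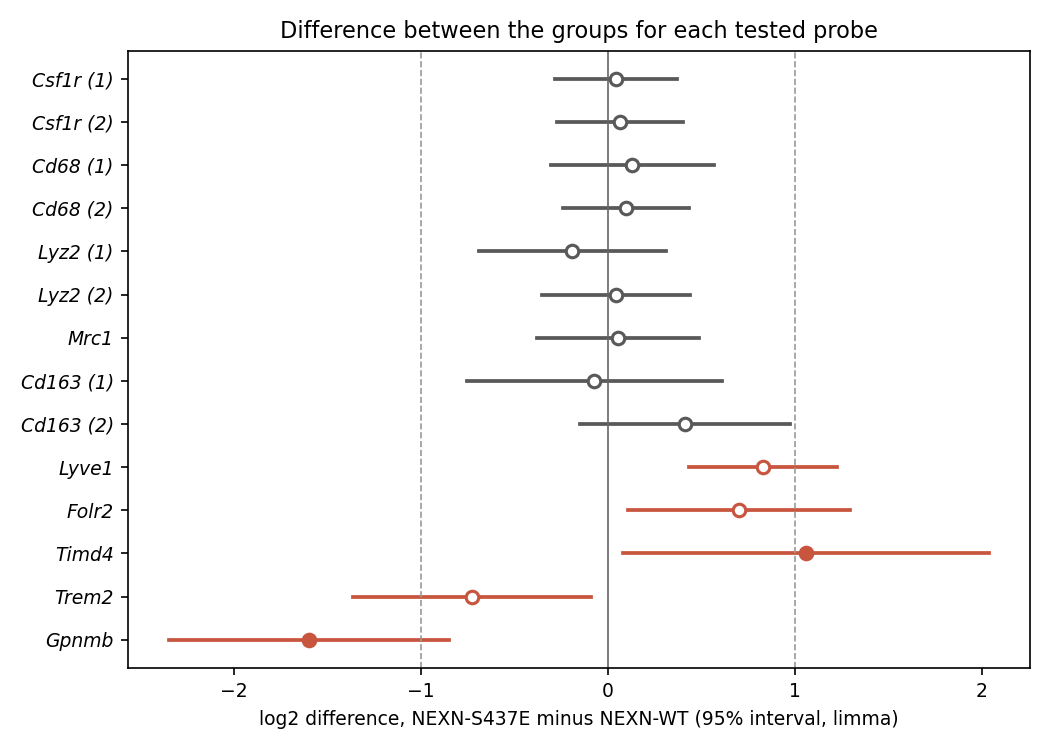
Log2 difference, NEXN-S437E minus NEXN-WT (x axis), of each tested probe (y axis) with its 95% interval from limma. Red marks an unadjusted p under 0.05, filled points also pass 2-fold (dashed lines), and grey intervals include 0; *Timd4* at 1.06 and *Gpnmb* at -1.60 are the filled points.

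Other macrophage genes were taken from lists, each gene by the tested probe of highest mean. The pan-macrophage list (*Adgre1*, *Mertk*, the *C1q* genes and others) had 19 of its 20 genes tested, and none passed the study's thresholds, against 2.92% of all 13747 genes (2.15% lower and 0.771% higher). The median difference was -0.22, beside 0.07 over all genes, with 15 genes lower and 4 higher, against 5611 lower and 8136 higher of all genes. Without NEXN-WT replicate 1 the median was -0.02, with 10 of the 19 genes lower. Leaving out NEXN-WT replicate 2 made that median -0.43, with 17 genes lower, and array weights made it 0.03, with 9 lower. Only *Fcgr1*, *Cx3cr1* and *Mpeg1*, 3 genes named after their values were seen, had an unadjusted p under 0.05, all lower, at -0.74, -0.66 and -0.85, against 7.91% of all genes lower at that p and 10.1% higher. *Cx3cr1* was at -0.38 without NEXN-WT replicate 3 and *Mpeg1* at -0.48 without NEXN-WT replicate 1, and by the methods' t-test *Fcgr1* alone of the 3 passed. The complement genes *C1qa*, *C1qb* and *C1qc* differed by -0.07, 0.01 and 0.13, with overlapping hearts.

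The resident cardiac macrophage list had 13 of its 16 genes tested. Its mean level ranged from 1.63 to 1.94 in NEXN-WT and from 2.10 to 2.17 in NEXN-S437E hearts. That mean includes *Fcna*, which had the largest difference of the list. Since *Fcna* was tested through the group where it is high, the gap between these ranges was not read as a result. *Ccl24* and *Fcna* rose at the study's thresholds, 2 of 13 against 0.771% of all genes. *Fcna* was tested because all 3 NEXN-S437E hearts, where it is high, gave a signal well above background, and over genes that did so on all 6 arrays the count was 1 of 12 against 0.533%. The list's median was 0.15, with 9 genes higher and 4 lower, against 8136 higher and 5611 lower of all 13747 genes. Leaving out NEXN-WT replicates 1, 2 and 3 in turn gave medians of 0.32, 0.07 and 0.35. Over the 12 genes well above background on all 6 arrays the median was 0.14. *Ccl24*, a chemokine that attracts eosinophils, stood at -0.35, 0.59 and 1.01 in NEXN-WT and at 1.62, 1.71 and 1.90 in NEXN-S437E hearts. The difference was 1.33 (SE 0.32, limma adjusted p = 0.134), and 0.95 without NEXN-WT replicate 1. *Fcna*, ficolin A, a lectin of the complement system, differed by 2.11 (SE 0.51, limma adjusted p = 0.135), from a NEXN-WT mean of -3.74, where 2 of 3 arrays were well above background, to -1.63, and by 0.86 after normexp background correction, short of 2-fold.

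At an unadjusted p under 0.05 alone, 6 genes of the resident list were higher and 1 lower, against 10.1% and 7.91% of all genes. Besides the 2 above, and named after their values were seen, these were *Cbr2* (0.88), *F13a1* (0.62), *Pf4* (0.46) and *Clec10a* (0.46), all higher, and the growth factor gene *Igf1* (-0.91), which fibroblasts and other heart cells also express. *Cbr2*, a carbonyl reductase, stood at 4.04, 5.01 and 5.23 in NEXN-WT and at 5.84, 5.65 and 5.43 in NEXN-S437E hearts, and here too NEXN-WT replicate 1 was the lowest heart. Without it *Cbr2* differed by 0.52 and *Igf1* by -0.46, and by the methods' t-test none of these 5 genes had an unadjusted p under 0.05.

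The lipid and injury associated list had 18 of its 20 genes tested, with a median of -0.27, and *Ctsk* and *Itgax* passed the study's thresholds, 2 of 18 against 2.15% of all genes. *Itgax* was tested through the NEXN-WT hearts, where it is high, and over genes well above background on all 6 arrays the count was 1 of 16 against 1.43%. *Ctsk*, the cysteine protease cathepsin K, which fibroblasts and osteoclasts also make, stood at 3.96, 2.48 and 2.61 in NEXN-WT and at 1.43, 1.46 and 1.62 in NEXN-S437E hearts. It fell by 1.51 (SE 0.36, limma adjusted p = 0.135), and the difference was -1.04 without NEXN-WT replicate 1. *Itgax*, the integrin CD11c, was not well above background in the NEXN-S437E group. Set against the dimmest signal that was, *Itgax* was at least 2.03-fold lower there (limma adjusted p = 0.193). *Itgax* did not pass the study's thresholds after normexp background correction (-0.13), with the slide row block (-0.47) or by the methods' t-test (unadjusted p of 0.0698). Another 3 genes were lower at an unadjusted p under 0.05 alone and 2 were higher, named after their values were seen, against 7.91% and 10.1% of all genes at that p. The lower ones were *Lgals3* (-0.87, and -0.47 without NEXN-WT replicate 1), *Lipa* (-0.61) and *Apoe* (-0.38). The higher ones were *Lpl* (0.51) and *Cd36* (0.50), which bring fatty acids into cardiomyocytes as well as macrophages. With quantile normalization *Lpl* was at 0.26 and *Cd36* at 0.30, neither with an unadjusted p under 0.05, and *Apoe* was at -0.68.

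**Figure D4:**
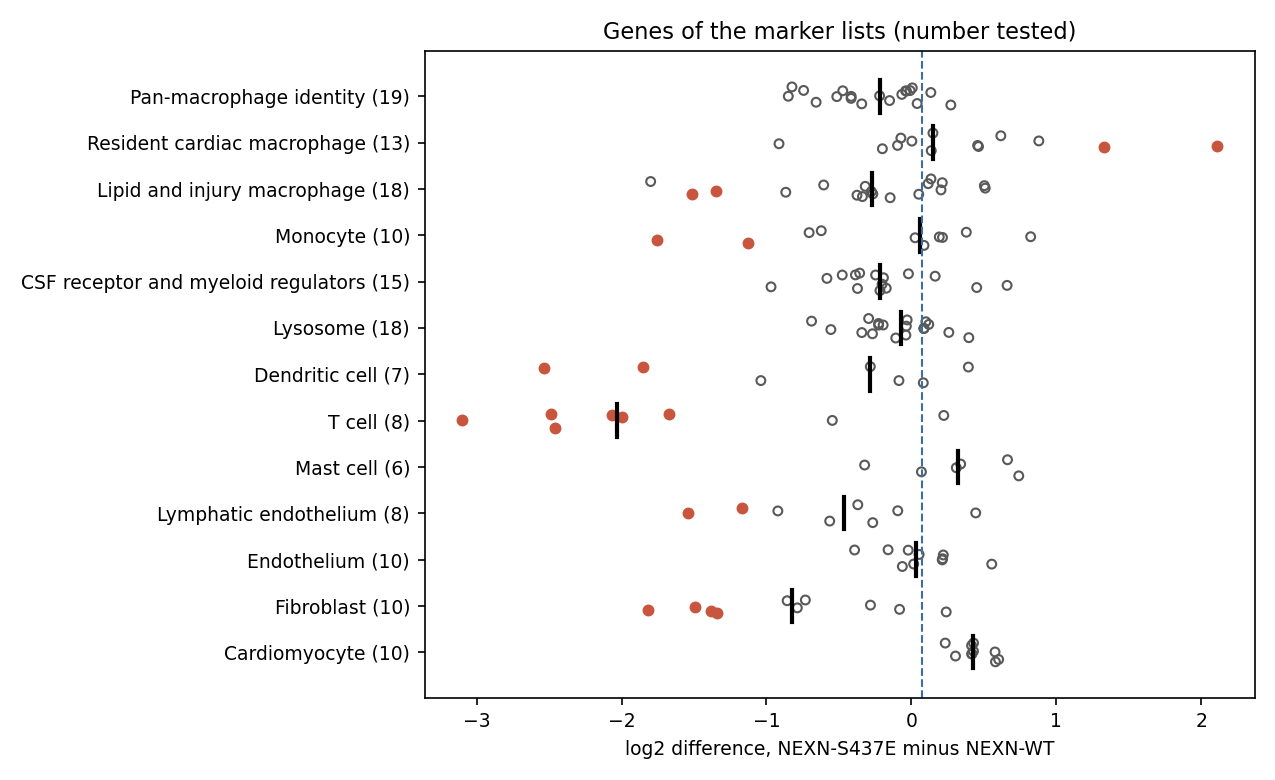
Log2 difference, NEXN-S437E minus NEXN-WT (x axis), of each tested gene of 13 marker lists (y axis, with the number of genes tested). Filled red points pass the study's thresholds, black bars are list medians, and the dashed line is the median of all tested genes, 0.07; the T cell median is -2.03, the fibroblast median -0.82 and the pan-macrophage median -0.22.

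The list of CSF receptor ligands, partners and myeloid regulators had 15 of its 21 genes tested, with a median of -0.22 and no gene past the study's thresholds. At an unadjusted p under 0.05 it had 6 genes lower and 1 higher, against 7.91% and 10.1% of all genes. *Csf1*, the main ligand of the *Csf1r* product, stood 0.36 lower (SE 0.13, limma adjusted p = 0.248), and *Il34*, its other ligand, differed by -0.25 with overlapping hearts (-0.11 without NEXN-WT replicate 1, and 0.05 with the slide row block). Both were named after their values were seen. *Spi1*, which encodes PU.1, gave a signal well above background in 1 heart of each group and was not tested. The lysosome list had 18 of 18 genes tested, none past the study's thresholds, and a median of -0.07. That median was -0.17 without NEXN-S437E replicate 1 and -0.03 without NEXN-S437E replicate 3. It was -0.26 with quantile normalization and -0.001 with the slide row block.

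Monocyte genes included 10 of 14 that could be tested, with 2 lower at the study's thresholds against 2.15% of all genes. The median of 0.06 had no stable sign, at -0.08 without NEXN-S437E replicate 1, -0.02 without NEXN-WT replicate 1 and -0.17 with quantile normalization. *Plac8*, expressed by classical monocytes and other leukocytes, stood at 1.22, 0.65 and 0.62 in NEXN-WT and at -0.90, -0.96 and -0.91 in NEXN-S437E hearts. It fell by 1.75 (SE 0.19, limma adjusted p = 0.0192), the only gene of the monocyte and macrophage lists past the adjusted p, which 0.204% of all genes passed. *Plac8* passed the study's thresholds in all 18 alternatives, but its adjusted p rose above 0.05 when NEXN-WT replicate 2 (0.0724) or any NEXN-S437E heart (0.069 to 0.0941) was left out, with no filter (0.125), with the slide row block (0.13) or the replicate block (0.051), and by the methods' t-test (0.304). *Vcan*, the proteoglycan versican, fell by 1.13 and by less than 2-fold (-0.64) without NEXN-WT replicate 1. *Vcan* also missed the study's thresholds by the methods' t-test, after normexp background correction, with the slide row block and with array weights. *Ccr2*, the receptor that defines recruited monocytes, gave a signal well above background in 2 NEXN-WT hearts and in no NEXN-S437E heart, and it was not tested.

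Some markers of other cells also differed between the groups, and their part in the results above was not tested. Their counts past the study's thresholds stand against 2.15% of all genes lower and 0.771% higher, and those past the adjusted p against 0.204%. The T cell list (8 of 10 genes tested) had a median of -2.03 with 6 genes lower at the study's thresholds, 3 of them past the adjusted p (1 to 5 with each heart left out in turn, and 0 by the methods' t-test), and its mean level ran from -1.38 to -0.80 in NEXN-WT and from -2.96 to -2.53 in NEXN-S437E hearts. The 4 of smallest p were *Cd3g*, *Lck*, *Cd3d* and *Cd8b1*. For *Cd3g* no NEXN-S437E heart gave a signal well above background, so that it was lower by at least 2.18-fold. After normexp background correction the list's median was -0.52, with *Cd3d* alone past the study's thresholds. The list's mean level includes *Cd3g* and other genes tested through the NEXN-WT hearts, where they are high. Over the 5 genes well above background on all 6 arrays the median was -1.67, with 3 past the study's thresholds. The fibroblast list (10 of 10 tested) had a median of -0.82 with *Col1a1*, *Col1a2*, *Col3a1* and *Mfap5* lower, and a mean level from 5.10 to 5.80 in NEXN-WT and from 4.51 to 4.58 in NEXN-S437E hearts. The cardiomyocyte list (10 of 10 tested, every gene well above background) was higher in every gene, as were 8136 of all 13747 genes. It had 0 genes past the study's thresholds and 0 past the adjusted p, and 4 at an unadjusted limma p under 0.05 against 10.1%. The median of the list was 0.42, with a mean level from 6.77 to 7.31 against 7.51 to 7.60. With quantile normalization and in the deposited log2 values its median was 0.18 and 0.19, with 2 of the 10 genes lower, and without NEXN-WT replicate 1 it was 0.28. In both lists NEXN-WT replicate 1 was the heart farthest from the NEXN-S437E hearts, as it was for the 5 genes above.

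Lymphatic vessels also express *Lyve1*, and their part in its difference was not tested. The 8 genes of their list had a median of -0.47, or -0.28 without NEXN-WT replicate 1, with *Ccl21a* (-1.17) and *Sema3d* (-1.54) lower, both by less than 2-fold without NEXN-WT replicate 1 (-0.83 and -0.99) and neither past the study's thresholds with the slide row block. *Prox1*, a regulator of lymphatic identity, was the 1 gene of the list that was higher, against 7 lower. It differed by 0.44 with overlapping hearts, and by 0.17 without NEXN-WT replicate 1. Which cells of the myocardium gave the *Prox1* signal was not tested. The endothelial list (10 of 10 tested) had a median of 0.03, which was -0.09 without NEXN-WT replicate 1, and no gene past the study's thresholds. Among dendritic cell genes 7 of 10 were tested, with a median of -0.28 and *Cd209a* and *Ccr7* past the study's thresholds, neither of them after normexp background correction. Both were tested through the NEXN-WT hearts, where they are high, and over the 4 dendritic cell genes well above background on all 6 arrays the median was -0.0024 with 0 past the thresholds. *Cd209a* gave no signal well above background in the NEXN-S437E group, and what was measured bounds its difference at 1.75-fold or more, short of the 2-fold threshold. Its limma adjusted p of 0.00204 came from signals not well above background in that group. No gene passed the study's thresholds in the mast cell list (6 of 8 tested, median 0.32), the erythrocyte list (4 of 7, median 0.32), the neutrophil list (3 of 12, median 0.17) or the B cell list, of which *Cd79b* alone was tested (-0.61). Leaving out single NEXN-WT hearts took the mast cell median to 0.06 (replicate 2) and to 0.72 (replicate 3). The erythrocyte mean level was 4.21 in NEXN-S437E replicate 1 against 0.93 and 1.54 in the other NEXN-S437E hearts. Without that heart the erythrocyte and neutrophil medians were -0.62 and -0.67, and without NEXN-WT replicate 1 both were -0.02. With the slide row block, where the group difference rests on NEXN-S437E replicate 1, they were 2.31 and 1.84. Of genes well above background on all 6 arrays, the adjusted p was passed in these lists by *Cd3d*, *Lck* and *Plac8*.

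The genes whose levels over the 6 hearts followed a member most closely were found among 12930 genes for *Csf1r* and 12931 for *Gpnmb*, each well above background on all 6 arrays and centred on its own mean. For the second *Csf1r* probe they were *Copg1*, *Pus10*, *Sugt1*, *Cdk5rap3* and *Dtymk*, at a root mean square difference of 0.0276 to 0.0358 in log2 units. For *Gpnmb* they were *Sh2b2*, *Anxa8*, *Lhfpl2*, *Gpc6* and *Fzd2*, at 0.307 to 0.381. The distances are larger for *Gpnmb*, whose own levels spread more.

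The tested probes of the 2 genes that the study targeted did not separate the groups. The 1 *Clk4* probe well above background on all arrays differed by 0.13 and 2 *Nexn* probes by 0.02 and 0.14, each with overlapping hearts. Of 2 dim *Clk4* probes that were not tested, 1 did not overlap between the groups (a difference of 0.45) and the other did (0.60). All 6 hearts carried the deletion and a *Nexn* vector, so neither gene checks the labels. The signal at the 75th percentile was 273, 175 and 154 in NEXN-WT and 110, 160 and 142 in NEXN-S437E hearts, 41.9% to 47.8% of spots were well above background, and no spot was saturated. Of the probes called at the study's thresholds 29.2% were higher with NEXN-S437E. When arrays were scaled to the percentile of detected probes alone this share was 18.4%, and the median difference of all tested probes moved from 0.09 to -0.02. That scaling takes the same amount off every difference, so it cannot move a probe relative to the median. Under either scaling *Lyve1* stood 0.74, *Folr2* 0.61 and *Timd4* 0.97 above the median of all tested probes, and *Trem2* and *Gpnmb* stood at -0.81 and -1.69 relative to it.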

How the data were processed

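RNA was measured in 6 *Clk4*-cKO hearts, 3 given AAV NEXN-WT and 3 given AAV NEXN-S437E, each on its own 1-colour Agilent array for mouse transcripts (design 074809), all on 1 slide and in 1 scan. Groups came from the labels, and the study describes the samples of a group as separate animals. The authors deposited spot intensities on a linear scale, background-subtracted by Feature Extraction 10.7.1.1 and not normalized between arrays. A table of the whole series, also deposited by the authors, holds normalized log2 values. Its 6 columns are identical once sorted, which is what quantile normalization produces. The software behind these values is not given in the sources used here.

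Control spots and outlier spots were left out, the log2 processed signal was reduced by the 75th percentile of all non-control spots of its array, and spots of a probe were averaged. The 22998 probes that were well above background in every heart of either group were tested with limma 3.58.1 (lmFit, eBayes). The files were read in R 4.3.3 with the package data.table, version 1.17.8. p-values were adjusted by Benjamini-Hochberg over all tested probes. Intervals are 95% intervals of limma, and precision is limited by the 3 arrays a group and by signal over background. The study's thresholds were a 2-fold change and an unadjusted p of 0.05. In simulated data for 22987 probes, 200 were changed, 100 by 4-fold and 100 by 2.8-fold. At these thresholds this test recovered 197, 100 of the former and 97 of the latter. At an adjusted p of 0.05 it recovered 170. With no change simulated it called 88 at these thresholds and 0 at that adjusted p. Recovery of differences smaller than 2.8-fold, such as those of *Lyve1*, *Folr2*, *Timd4* and *Trem2*, was not tested.

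The members, the marker lists and the tests were chosen with earlier results of these data known. The genes named are all members with every probe, up to 4 called genes of smallest p from each of 16 marker lists, *Clk4* and *Nexn*, and the 5 genes closest in profile to *Csf1r* and to *Gpnmb*. All others, such as the *C1q* genes, *Spi1*, *Ccr2*, *Prox1*, *Cd79b* and *Lyz1*, were named after their values were seen. The lists cover macrophages as a class, resident, and lipid and injury associated macrophages, monocytes, CSF receptor ligands and myeloid regulators, lysosomes, neutrophils, dendritic cells, T cells, B cells, mast cells, lymphatic and other endothelium, fibroblasts, cardiomyocytes and erythrocytes. *Trac* was read under the array's older symbol *Tcra*. Bounds for probes below background on every array of a group use, for each array, the lowest signal well above background.

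The alternatives tried were normexp background correction (offset 50), quantile normalization, scaling to detected probes only, the deposited log2 values, no filter, a filter on all 6 arrays, outlier spots kept, the methods' t-test, the replicate number and the slide row as blocks, an intensity trend, array weights, and each array left out. Probe positions are on mm9, a build not used here as a genome, and no probe was assigned to an exon or intron. Plots and sequence searches used matplotlib 3.10.9, pandas 2.3.3 and numpy 2.4.6 under Python 3.11.15.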

Additional observations from a re-analysis of the deposited data

How the results depend on the processing

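*Lyve1*, *Folr2*, *Timd4*, *Trem2* and *Gpnmb* kept their directions under every alternative that tested them. *Timd4* lost the study's thresholds in 11 of 18 alternatives and *Gpnmb* in 1 of 17, normexp. Of the 14 tested probes, 7 changed sign under at least 1 alternative, all with intervals that include 0. The count of member probes past the study's thresholds, 2 by the main setting, was 0 after normexp background correction, and 1 with the percentile over detected probes, the filter on all 6 arrays, no filter, the methods' t-test, the slide row block or array weights. The count past the adjusted p was 5 with array weights, which gave 3820 of all probes past it, and 0 otherwise. The 5 at an unadjusted p under 0.05 became 2 (*Lyve1* and *Gpnmb*) with the methods' t-test or the slide row block. Leaving out any heart but NEXN-WT replicate 3 kept *Lyve1* and *Gpnmb* and lost 2 or 3 of the others, and without NEXN-S437E replicate 3 a *Cd163* probe came in.

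Over all tested probes, the 579 past the study's thresholds became 180 after normexp, 2269 with no filter (72.5% of them higher) and 345 with the filter on all 6 arrays. The 37 past the adjusted p became 7 with no filter, 20 with the filter on all 6 arrays, 24 with the slide row block, 80 with the intensity trend and 0 with the methods' t-test, which gave 3141 at an unadjusted p under 0.05. After normexp 13.9% of the called probes were higher. The 2 resident list genes became 1 after normexp and 1 with the filter on all 6 arrays. The 2 lipid and injury list genes became 1 after normexp and 1 with that filter, the methods' t-test, the slide row block or array weights. With each heart left out, the counts past the study's thresholds ranged from 361 (without NEXN-WT replicate 1) to 900 (without NEXN-WT replicate 3) over all probes, 1 to 2 for the members, 0 to 2 for the pan-macrophage list, 1 to 4 for the resident list and 2 to 4 for the lipid and injury list. The counts past the adjusted p ranged from 12 (without NEXN-WT replicate 2) to 128 (without NEXN-WT replicate 1) over all probes and stayed at 0 for the members. Where these counts moved, the cause was not tested, except that the filters change which probes are tested.

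With the replicate block, 591 probes passed the study's thresholds and 37 the adjusted p, 2 and 0 of them members, and the lipid and injury list had 3. Samples that share a number did not deviate together (correlations of -0.154, -0.0282 and -0.176), so the numbers do not pair the hearts. Signal over background limits the *Gpnmb* probe and the second *Cd163* probe, which were near it in NEXN-S437E hearts.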
